A study of Mus musculus with 12 samples.

Results

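The genes described here encode proteins that write, read or depend on methylation of lysine 9 of histone H3 (H3K9) and that keep retroelements silent, together with Adar, which edits the double-stranded RNA that escapes such silencing. The genes were taken by name from a list of such factors. Of the 10 genes listed, 9 had a named probe set among the 19494 genes measured: Trim28, Setdb1, Ehmt1, Ehmt2, Suv39h2, Mphosph8, Atrx, Cbx5 and Adar, each with 1 probe set. Suv39h1 had none and was not analysed here. None of the 9 differed between NFAT5-deficient and wild-type cells, or between stem cells and progenitors, by more than the test across all genes allowed. The genes differed widely in how far replicate arrays of them spread. Mphosph8, Atrx and Cbx5 stayed within narrow limits on all 12 arrays, whereas Trim28 and Ehmt1 ranged over many-fold within a single group.

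In this system, KRAB zinc finger proteins bind retroelement DNA and bring in TRIM28, a corepressor, which recruits SETDB1, which trimethylates H3K9. EHMT2 (G9a) and its partner EHMT1 (GLP) place mono- and dimethylation in euchromatin, and the SUV39H enzymes place trimethylation in pericentric heterochromatin. The marks are read by HP1 proteins, of which Cbx5 encodes HP1 alpha, and by MPHOSPH8 (MPP8), the chromodomain subunit of the human silencing hub (HUSH). ATRX, a chromatin remodeler, deposits histone H3.3 at repeats together with DAXX, and ADAR converts adenosine to inosine in double-stranded RNA, so that transcripts of the cell's own repeats are not read as viral by MDA5. In blood stem cells of the mouse, loss of Setdb1 or Adar is known to deplete the stem and progenitor compartment, with derepressed retroelements or interferon responses.

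The arrays measured donor-derived mouse bone marrow cells 13 weeks after transplantation. The 4 groups were NFAT5-deficient HSC and wild-type HSC, and NFAT5-deficient MPP and wild-type MPP, with 3 arrays in each. NFAT5-deficient donors were Nfat5 fl/fl Vav-Cre and wild-type donors Nfat5 +/+ Vav-Cre, so both genotypes carried the Cre, which the Vav promoter drives in blood cells. NFAT5 is a Rel-family transcription factor that drives the response of cells to high salt. Marrow of CD45.2 donors had been given to irradiated wild-type CD45.1 recipients, so stroma and other host cells were wild-type in every group. HSC (hematopoietic stem cells) were CD48-negative and CD150-positive, and MPP (multipotent progenitors) CD48-positive and CD150-negative, both from the gate of lineage-negative cells with Sca-1 and Kit. The sources used here give neither age nor sex. Arrays are named by the number in their label, 64, 70 and 76 for NFAT5-deficient and 66, 67 and 75 for wild-type cells. Nothing in the labels says that these came from separate animals, so p-values measure the spread between these samples, which may be technical. In sorted pools such as these, fewer cells with a transcript and less of it per cell cannot be told apart.

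All values are log2 intensities as deposited, and levels are compared only within a gene. Over all genes, arrays of 1 group correlated at 0.898 to 0.952 and arrays of different groups at 0.890 to 0.949. Nfat5 read 8.76, 8.34 and 7.62 in HSC of arrays 64, 70 and 76 (NFAT5-deficient), against 9.81, 9.38 and 9.27 in arrays 66, 67 and 75 (wild-type), a log2 difference of -1.25 (SE 0.35). In MPP that difference was -0.66 (SE 0.35), and limma's adjusted p was 0.772 in HSC and 0.896 in MPP. The targeted gene itself thus missed the test, and a missing call is no sign that a gene stayed the same. Slamf1 and Cd48, whose proteins part the gates, stood apart. Group means of Slamf1 (CD150) were 10.08 and 9.84 in NFAT5-deficient and wild-type HSC, against 6.46 and 6.26 in NFAT5-deficient and wild-type MPP. Cd48 had group means of 6.50 in NFAT5-deficient and 6.48 in wild-type HSC, against 10.28 in NFAT5-deficient and 9.92 in wild-type MPP. Of the other gate markers measured, Tek was higher in HSC and Flt3 in MPP, in both genotypes. Procr did not follow the gate in NFAT5-deficient cells, with means of 7.08 in HSC and 7.35 in MPP. In wild-type cells its means were 8.18 in HSC and 6.52 in MPP. Kit, used in both gates, had group means of 11.16 to 11.43. The mean of 9 mature neutrophil markers was 5.42 to 5.53 in NFAT5-deficient HSC and 6.88, 7.38 and 5.52 on wild-type HSC arrays 66, 67 and 75. It was 6.01 to 6.62 in NFAT5-deficient MPP and 5.96 to 7.02 in wild-type MPP. The SD over genes of an array's deviation from its group mean was largest for wild-type HSC array 66 (0.47) and ran from 0.33 to 0.44 on the other 11.

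Since the factor removed here binds DNA, the promoters of the silencing genes were searched for the core letters TGGAAA shared by the NFAT family, on both strands. Windows ran from 250 bases before to 50 bases after each RefSeq start (GRCm38.p6), and all 10 listed genes had at least 1, for 15 windows in all. The core occurred in 5 of the 15 windows and in 3 of the 10 genes, Setdb1, Suv39h2 and Adar, and in 21.4% of all 32851 windows and 23.9% of 27025 genes. The longer TonE consensus of NFAT5, which contains the core, occurred in 2 of 15 windows and 2 of 10 genes, Setdb1 and Adar. It occurred in 4.96% of all windows and 5.74% of all genes. The match in Adar lay in its most downstream window, which is not the one printed below. The interferon-stimulated response element, searched as a motif on both strands, occurred in 1 of the 15 windows, the downstream start of Cbx5, and in 3.44% of all windows. Shown are the windows of Setdb1 (chr3:95357153-95357452, minus strand) and Suv39h2 (chr2:3474937-3475236, minus strand), the genes with the lowest unadjusted p for the genotype comparisons below. With them stand the middle of 3 starts of Adar (chr3:89714988-89715287, plus strand) and the upstream start of Cbx5 (chr15:103239803-103240102, minus strand), the steadiest gene, which lacked the core. Capitals mark the core or its reverse complement.
Setdb1: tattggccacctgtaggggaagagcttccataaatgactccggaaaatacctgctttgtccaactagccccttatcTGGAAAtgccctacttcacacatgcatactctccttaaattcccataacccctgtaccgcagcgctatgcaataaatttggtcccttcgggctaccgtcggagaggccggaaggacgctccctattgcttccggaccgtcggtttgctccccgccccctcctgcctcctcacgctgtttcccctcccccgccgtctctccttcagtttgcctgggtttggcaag
Suv39h2: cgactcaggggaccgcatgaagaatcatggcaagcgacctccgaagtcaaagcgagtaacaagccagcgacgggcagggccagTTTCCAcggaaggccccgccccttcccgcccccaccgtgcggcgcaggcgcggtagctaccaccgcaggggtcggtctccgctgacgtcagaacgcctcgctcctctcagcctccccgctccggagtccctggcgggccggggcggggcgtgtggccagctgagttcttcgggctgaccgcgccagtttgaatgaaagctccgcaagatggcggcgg
Adar: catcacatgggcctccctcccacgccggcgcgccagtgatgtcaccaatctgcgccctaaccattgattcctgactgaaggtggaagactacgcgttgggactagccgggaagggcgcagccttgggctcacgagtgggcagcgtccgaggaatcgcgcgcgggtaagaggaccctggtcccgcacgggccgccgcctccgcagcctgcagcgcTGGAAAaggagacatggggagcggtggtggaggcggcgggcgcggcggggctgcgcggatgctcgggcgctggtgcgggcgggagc
Cbx5: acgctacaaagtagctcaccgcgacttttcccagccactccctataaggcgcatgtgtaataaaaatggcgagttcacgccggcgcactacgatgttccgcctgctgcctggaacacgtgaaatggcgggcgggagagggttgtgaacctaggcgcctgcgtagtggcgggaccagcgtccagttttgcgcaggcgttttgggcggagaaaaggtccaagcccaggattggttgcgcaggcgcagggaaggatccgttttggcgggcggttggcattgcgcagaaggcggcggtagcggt
In Setdb1 the core began 174 bases before the start, in Suv39h2 167 bases before it on the other strand, and in this window of Adar 36 bases before it. A match is a description of the letters and not a binding site.

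**Figure D1:**
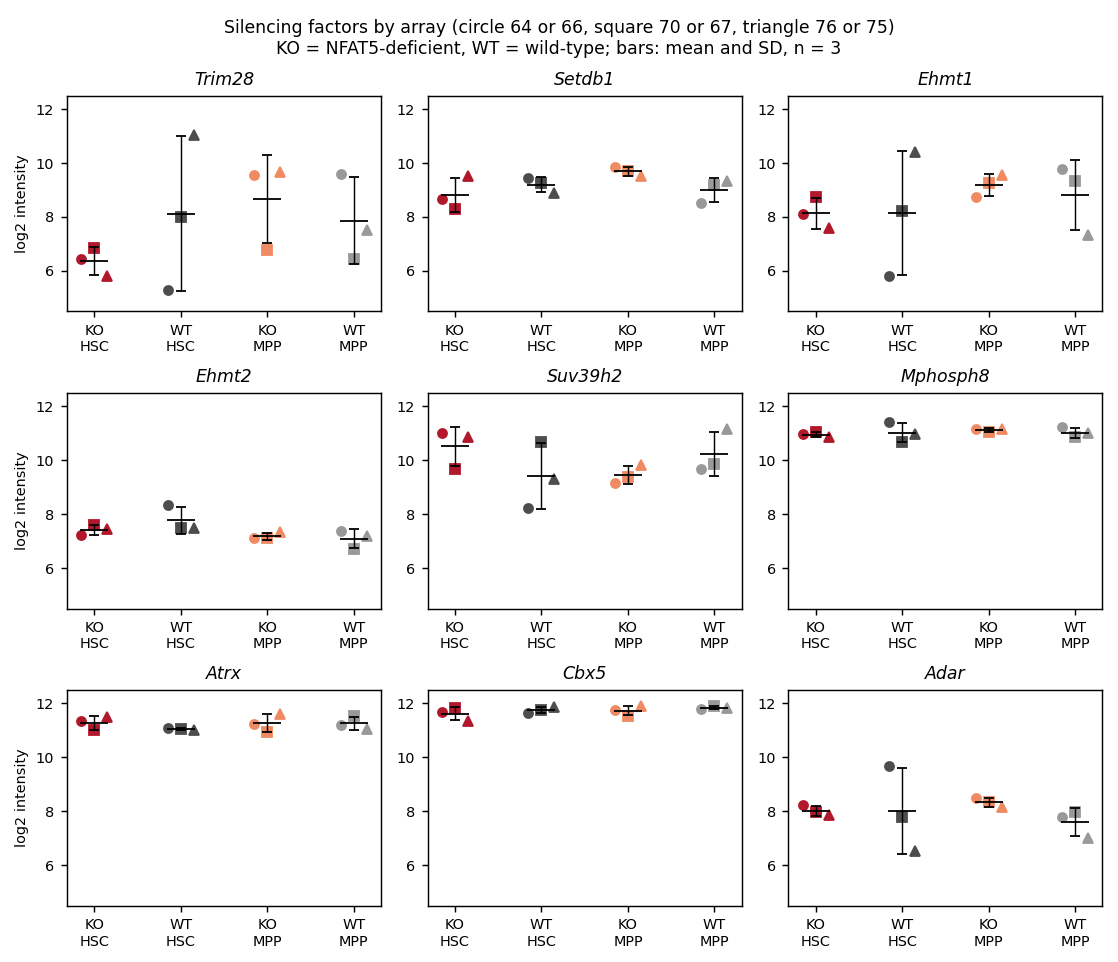
Log2 intensity of the 9 measured silencing genes on each array (points, marker shape by array number), by group, with the mean and SD of 3 arrays (black). Trim28 ran from 5.31 to 11.05 and Ehmt1 from 5.82 to 10.42, both ends in wild-type HSC, while Cbx5 stayed between 11.36 and 11.91.

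Trim28, the corepressor at the head of the pathway, had the widest spread of the 9. It read 6.44, 6.85 and 5.82 in NFAT5-deficient HSC (arrays 64, 70 and 76), against 5.31, 8.001 and 11.05 in wild-type HSC (arrays 66, 67 and 75). In NFAT5-deficient MPP it read 9.55, 6.78 and 9.66, against 9.61, 6.44 and 7.51 in wild-type MPP. Wild-type HSC held both the lowest and the highest of the 12 values, and the groups overlapped in both populations. The lowest, 5.31, lay just above the highest group mean of the Y-linked genes (5.07), which serve as a floor. The Trim28 mean in NFAT5-deficient HSC, 6.37, was the lowest group mean of the 9 genes. The difference between NFAT5-deficient and wild-type HSC was -1.75 (SE 1.32, limma adjusted p = 0.897), with a 95% interval from -4.68 to 1.18. Without wild-type HSC array 75 it was -0.28, and without wild-type HSC array 66 it was -3.16. In MPP the difference was 0.81 (SE 1.32, limma adjusted p = 0.936). It was 0.11 without wild-type MPP array 67 and 1.75 without NFAT5-deficient MPP array 70. In NFAT5-deficient cells, Trim28 in HSC minus that in MPP was -2.29 (SE 1.32, 95% interval -5.22 to 0.63, limma adjusted p = 0.702). There, HSC array 70 (6.85) lay above MPP array 70 (6.78), and the other 2 HSC arrays lay below all 3 MPP arrays.

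Setdb1, the methyltransferase that TRIM28 recruits, was measured more tightly. It read 8.65, 8.30 and 9.51 in NFAT5-deficient HSC, against 9.44, 9.25 and 8.90 in wild-type HSC. In MPP it read 9.86, 9.71 and 9.50 in NFAT5-deficient cells, against 8.50, 9.18 and 9.34 in wild-type cells. All 3 NFAT5-deficient MPP arrays therefore lay above all 3 wild-type MPP arrays, whereas the HSC arrays of the genotypes overlapped. The genotype difference was -0.38 in HSC (SE 0.34, limma adjusted p = 0.915) and 0.68 in MPP (SE 0.34, limma adjusted p = 0.896), or 1.605-fold in MPP with a 95% interval from 0.957 to 2.69. The MPP difference was 0.43 without wild-type MPP array 66. The HSC difference was -0.12 without NFAT5-deficient HSC array 70, -0.73 without NFAT5-deficient HSC array 76, and 0.0017 without wild-type HSC array 66 and NFAT5-deficient HSC array 70 together. The difference between these genotype effects, HSC minus MPP, was -1.06 (SE 0.48, 95% interval -2.12 to -0.0090), with an unadjusted p of 0.0484 and a limma adjusted p of 0.999. Of all genes, 4.19% had an unadjusted p under 0.05 in that comparison. Within NFAT5-deficient cells, Setdb1 was at 54.7% of the MPP level in HSC, a log2 difference of -0.87 (SE 0.34, limma adjusted p = 0.554). The values overlapped there only between HSC array 76 (9.51) and MPP array 76 (9.50). In wild-type cells the difference between HSC and MPP was 0.19 (SE 0.34).

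Ehmt1 and Ehmt2 encode the obligate partners GLP and G9a, yet the spread of their probe sets was unlike. Ehmt1 read 8.10, 8.73 and 7.57 in NFAT5-deficient HSC, against 5.82, 8.23 and 10.42 in wild-type HSC. The MPP values were 8.73, 9.27 and 9.54 in NFAT5-deficient cells, against 9.78, 9.33 and 7.33 in wild-type cells. As for Trim28, the lowest array was wild-type HSC 66 and the highest wild-type HSC 75. The genotype difference of Ehmt1 was -0.02 in HSC (SE 0.99, 95% interval -2.20 to 2.16) and 0.37 in MPP (SE 0.99), with limma adjusted p of 0.998 and 0.967. In HSC this interval spans a fold of 0.218 to 4.46, so a several-fold change in either direction would not have been detectable.

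Ehmt2 read 7.23, 7.59 and 7.44 in NFAT5-deficient HSC, against 8.35, 7.47 and 7.49 in wild-type HSC. In MPP it read 7.10, 7.10 and 7.33 in NFAT5-deficient cells, against 6.70 to 7.39 in wild-type cells. Wild-type HSC array 66 stood above the other 11 arrays. All 3 wild-type HSC arrays lay above all 3 wild-type MPP arrays, by 0.68 on average (SE 0.27, 95% interval 0.07 to 1.29, unadjusted p = 0.0319, limma adjusted p = 0.505). In NFAT5-deficient cells HSC and MPP differed by 0.24 (SE 0.27) and overlapped. Over both genotypes HSC exceeded MPP by 0.46 (SE 0.19, unadjusted p = 0.0375, limma adjusted p = 0.382), the smallest adjusted p of any silencing gene in any of the 7 comparisons. Without wild-type HSC array 66 the wild-type difference was 0.39. The genotype difference of Ehmt2 was -0.35 in HSC and 0.09 in MPP (SE 0.27 each), and the HSC value was -0.06 without wild-type HSC array 66.

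Suv39h2, the heterochromatin methyltransferase left to measure without Suv39h1, showed the reverse order of genotypes in the populations from Setdb1, also without passing the test. It read 11.01, 9.67 and 10.85 in NFAT5-deficient HSC, against 8.23, 10.68 and 9.31 in wild-type HSC. MPP arrays gave 9.16, 9.37 and 9.82 in NFAT5-deficient cells, against 9.68, 9.85 and 11.17 in wild-type cells. The arrays of the genotypes overlapped in both populations. The genotype difference was 1.10 in HSC (SE 0.61, unadjusted p = 0.0981, limma adjusted p = 0.852) and -0.78 in MPP (SE 0.61, limma adjusted p = 0.899). The HSC value was 0.52 without wild-type HSC array 66 and 1.74 without wild-type HSC array 67, and the MPP value was -0.31 without wild-type MPP array 75. The difference between these effects was 1.89 (SE 0.86, 95% interval -0.02 to 3.79, unadjusted p = 0.0516, limma adjusted p = 0.999). It kept its sign whichever array was left out, from 1.30 to 2.52, as did this difference for Trim28, Setdb1, Ehmt2 and Atrx.

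The readers Mphosph8 and Cbx5 and the remodeler Atrx gave the tightest values. Mphosph8 read 10.95, 11.04 and 10.84 in NFAT5-deficient HSC, against 11.41, 10.68 and 10.99 in wild-type HSC. In MPP it read 11.04 to 11.17 in NFAT5-deficient cells, against 10.85 to 11.21 in wild-type cells. The genotype difference was -0.08 in HSC (SE 0.17, 95% interval -0.46 to 0.30) and 0.10 in MPP (SE 0.17, 95% interval -0.28 to 0.48).

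Cbx5 read 11.70, 11.82 and 11.36 in NFAT5-deficient HSC, against 11.63, 11.76 and 11.85 in wild-type HSC. For MPP the readings were 11.76, 11.54 and 11.89 in NFAT5-deficient cells, against 11.78, 11.91 and 11.84 in wild-type cells. The range over all 12 arrays was 0.55 log2 units, the smallest of the 9 genes. The genotype difference was -0.12 in HSC (95% interval -0.41 to 0.16) and -0.11 in MPP (95% interval -0.39 to 0.17), with an SE of 0.13 in each. As folds these intervals ran from 0.754 to 1.12 in HSC and from 0.761 to 1.13 in MPP.

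Atrx read 11.35, 11.00 and 11.49 in NFAT5-deficient HSC, against 11.10, 11.07 and 11.03 in wild-type HSC. In MPP it read 11.22, 10.95 and 11.62 in NFAT5-deficient cells, against 11.22, 11.54 and 11.06 in wild-type cells. Its 3 wild-type HSC arrays were the closest replicates of any silencing gene (SD 0.04). The genotype difference was 0.21 in HSC (SE 0.19, 95% interval -0.20 to 0.63) and -0.0073 in MPP (SE 0.19, 95% interval -0.42 to 0.41). Between HSC and MPP, none of the 3 genes differed by more than 0.21 in either genotype, and limma's adjusted p for these 6 comparisons was 0.813 or more.

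Adar, the RNA editing enzyme, read 8.23, 7.98 and 7.85 in NFAT5-deficient HSC, against 9.68, 7.79 and 6.54 in wild-type HSC. In progenitors the values were 8.48, 8.36 and 8.16 in NFAT5-deficient cells, against 7.80, 7.98 and 7.02 in wild-type cells. All 3 NFAT5-deficient MPP arrays lay above all 3 wild-type MPP arrays, while in HSC the wild-type arrays reached both above and below the NFAT5-deficient ones. The genotype difference was 0.74 in MPP (SE 0.62, limma adjusted p = 0.899) and 0.02 in HSC (SE 0.62, 95% interval -1.35 to 1.39, limma adjusted p = 0.998). The MPP value was 0.45 without wild-type MPP array 75, and the HSC value was 0.86 without wild-type HSC array 66 and -0.72 without wild-type HSC array 75. Wild-type HSC arrays 66 and 75 were again the ends of the range, with 66 highest and 75 lowest, the opposite of Trim28 and Ehmt1. In all, 3 of the 9 genes had both ends of their range on these 2 arrays and 6 had at least 1 end there. The 2 arrays were picked after these values were seen, and the share over all genes was not counted. Over all genes, array 66 had the largest SD of deviations from its group mean (0.47), and wild-type HSC arrays 67 and 75 each had 0.44. Whether the counts are particular to the silencing genes was not tested. The neutrophil marker mean was 6.88 on wild-type HSC array 66, 7.38 on array 67 and 5.52 on array 75. On array 67, Trim28, Ehmt1 and Adar lay between their values on arrays 66 and 75. The part of neutrophil markers in these values was not tested.

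**Figure D2:**
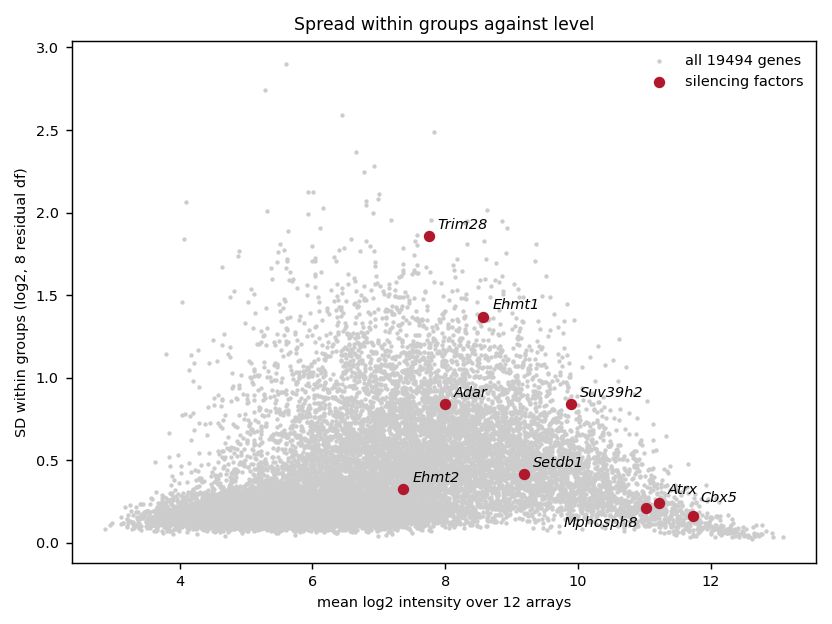
SD within groups (y, log2 units) against mean log2 intensity over the 12 arrays (x) for all 19494 genes (grey) and the 9 silencing genes (red). Trim28 (SD 1.86) and Ehmt1 (1.37) lie near the upper edge of genes of their level, and Mphosph8 (0.21), Atrx (0.24) and Cbx5 (0.16) within the band of bright genes.

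The spread was set beside that of genes of like level, those with a mean within 0.5 log2 units. The SD within groups of Trim28 was 1.86, against a median of 0.49 for 2924 genes of like level, and above 99.9% of them. Ehmt1 (1.37) stood above 97.9%, Suv39h2 (0.84) above 91.8% and Adar (0.84) above 80.6% of such genes. These 4 genes were thus among the noisier probe sets for their brightness. The values of the other 5 were ordinary, from the 33.1 percentile for Setdb1 (0.42) to the 63.5 percentile for Atrx (0.24), with Ehmt2 (0.33), Mphosph8 (0.21) and Cbx5 (0.16) between them. The narrow range of Cbx5, Mphosph8 and Atrx is therefore that of bright genes on these arrays. In HSC, 6 of the 9 genes had a smaller SD in NFAT5-deficient than in wild-type arrays, and likewise 6 of 9 in MPP. Of all genes, the wild-type SD was the larger for 56.6% in HSC and 58.5% in MPP.

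In order of group means, neighbouring groups overlapped in 26 of 27 cases. The exception was Setdb1, whose highest group, NFAT5-deficient MPP (9.69 ± 0.18, SD, n = 3), did not overlap the next, wild-type HSC (9.20 ± 0.27, SD, n = 3). NFAT5-deficient MPP was also the highest group for Trim28, Ehmt1, Mphosph8 and Adar, and NFAT5-deficient HSC the lowest for Trim28, Setdb1, Ehmt1, Mphosph8 and Cbx5. These orders are descriptions of the means, since all other neighbours overlapped.

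**Figure D3:**
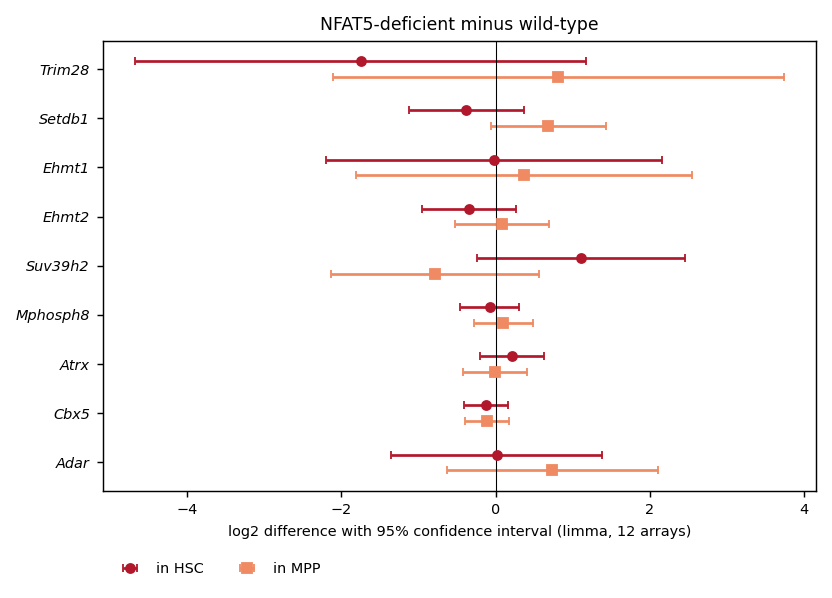
NFAT5-deficient minus wild-type log2 difference with its 95% confidence interval (limma) for the 9 silencing genes, in HSC (circles) and MPP (squares). Every interval includes 0, and their width runs from Cbx5 (-0.41 to 0.16 in HSC) to Trim28 (-4.68 to 1.18 in HSC).

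For loss of NFAT5 in HSC, 0 of 9 silencing genes were called at an adjusted p under 0.05, as were 0% of all genes in limma. At an unadjusted p under 0.05 these counts were 0 of 9 and 6.18% of all genes. The value was above that of wild-type HSC for 3 genes (41.6% of all genes) and below it for 6, and the median difference was -0.08, beside -0.05 over all genes. No silencing gene separated the genotypes fully in HSC, which 10.2% of all genes did. In MPP, 0 of 9 were called (0.00513% of all genes were), 0 of 9 had an unadjusted p under 0.05 (5.35% of all genes), 6 were higher (38.9% of all genes) and 3 lower, and the median was 0.10, beside -0.07 over all genes. Setdb1 and Adar, 2 of 9, separated the genotypes fully in MPP, both higher in NFAT5-deficient cells, as 3.8% of all genes did (12.6% in either direction). Over both populations together, 0 of 9 were called (0% of all genes) and 0 of 9 had an unadjusted p under 0.05 (7.11% of all genes), with 6 higher (37.8% of all genes) and 3 lower and a median of 0.10. The test of whether the genotype effect differed between HSC and MPP called 0 of 9 (0% of all genes), and only Setdb1, 1 of 9, had an unadjusted p under 0.05. There, 2 of 9 values were positive (53.3% of all genes) and 7 negative, with a median of -0.39 beside 0.02 over all genes.

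**Figure D4:**
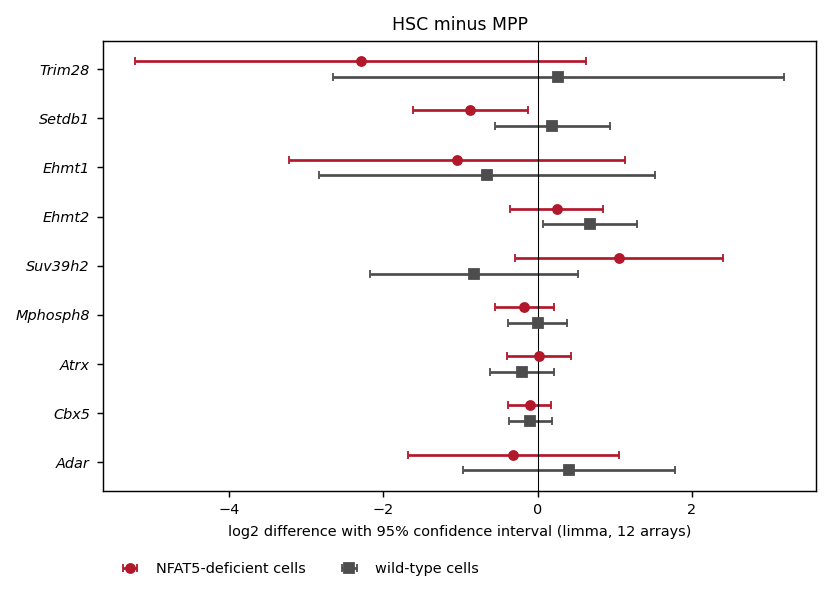
HSC minus MPP log2 difference with its 95% confidence interval (limma) for the 9 silencing genes, in NFAT5-deficient cells (circles) and wild-type cells (squares). The intervals that leave out 0 are those of Setdb1 in NFAT5-deficient cells (-1.62 to -0.13) and Ehmt2 in wild-type cells (0.07 to 1.29), and neither passed after adjustment.

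Between stem cells and progenitors, 0 of 9 silencing genes were called in NFAT5-deficient cells (0.21% of all genes) and 0 of 9 in wild-type cells (0.164%). At an unadjusted p under 0.05 these counts were 1 of 9 (7.9% of all genes) and 1 of 9 (8.9% of all genes). Within NFAT5-deficient cells, HSC were above MPP for 3 genes (62.1% of all genes) and below for 6, with a median of -0.18 beside 0.07 over all genes. No silencing gene separated HSC from MPP fully there, which 16.9% of all genes did. In wild-type cells 5 were higher (58.6% of all genes) and 4 lower in HSC, with a median of 0.0039 beside 0.05 over all genes. Ehmt2 separated HSC from MPP fully there, 1 of 9, as 7.54% of all genes did with HSC higher (12.3% in either direction). Averaged over the genotypes, 0 of 9 were called (0.61% of all genes), 1 of 9 had an unadjusted p under 0.05 (12.2% of all genes), 3 were higher (63.4% of all genes) and 6 lower in HSC, with a median of -0.10 beside 0.06. Over the 63 values of 9 genes in 7 comparisons, limma's adjusted p ran from 0.382 to 0.999.

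Across the 12 arrays, 36 pairs of silencing genes were correlated, and 0 passed a permutation test adjusted over the pairs. These correlations mix differences between groups with those within them. The closest pair was Trim28 with Ehmt1 (Pearson r 0.72, permutation p = 0.00684, adjusted p = 0.174). Its Spearman rho was 0.68 (permutation p = 0.0185, adjusted p = 0.415), and r was 0.57 over 10 arrays without the 2 farthest from the median of Trim28. Next was Suv39h2 with Mphosph8, which ran in opposite directions (Pearson r -0.71, permutation p = 0.00964, adjusted p = 0.174). There Spearman's rho was -0.66 (permutation p = 0.0231, adjusted p = 0.415), and r was -0.64 without the 2 farthest arrays. Ehmt1 and Ehmt2, whose proteins act as a complex, gave r = -0.56 (permutation p = 0.0655, adjusted p = 0.366), rho = -0.13 (permutation p = 0.686, adjusted p = 0.862), and r = -0.22 without the 2 farthest arrays. Trim28 and Setdb1, which act together, gave r = -0.07 (permutation p = 0.833, adjusted p = 0.905), rho = -0.13 (permutation p = 0.682, adjusted p = 0.862), and r = -0.06 without the 2 farthest arrays. With each group's mean subtracted, which was not tested, r was 0.74 for Trim28 with Ehmt1 and -0.73 for Suv39h2 with Mphosph8. It was -0.57 for Trim28 with Setdb1 and -0.53 for Ehmt1 with Ehmt2. Also beyond -0.57 were Trim28 with Adar (-0.72), Ehmt1 with Adar (-0.66), Setdb1 with Ehmt1 (-0.65) and Setdb1 with Cbx5 (-0.64). The highest r was then that of Ehmt2 with Mphosph8, 0.86. Both genes were highest on wild-type HSC array 66. Over the values as deposited, that pair had r = 0.50 (permutation p = 0.098, adjusted p = 0.392), rho = 0.13 (permutation p = 0.682, adjusted p = 0.862), and r = -0.35 without the 2 farthest arrays.

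The genes most like each silencing gene over the 12 arrays were sought among 7825 other genes with a mean of 7 or more, by Pearson r. The highest value was that of Adar with Atg3 (0.97), followed by Adar with Bpnt2 (0.93). Trim28 was most like Rab31 (0.91) and Klhl11 (0.89), Ehmt1 most like Elf4 (0.90) and Siva1 (0.89), and Setdb1 most like Eya3 (0.91) and Med31 (0.87). Ehmt2 was most like Myrf (0.91) and Glrx2 (0.90), Suv39h2 most like Chd9 (0.87) and Atp6v1a (0.85), and Mphosph8 most like Akr1c12 (0.87) and Utp20 (0.87). The lowest of these best values were those of Atrx with Abi1 (0.84) and Polr3k (0.79) and of Cbx5 with Eef1d and Plaa (0.83 and 0.82). These are the highest of many values on 12 shared arrays, and they are given as descriptions.

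The surrounding pathway was read from 7 further lists with 74 genes, of which 68 were measured. In each of the 7 comparisons, 0 of the 68 were called by limma, where 0% to 0.61% of all genes were. An unadjusted p under 0.05 was reached by 4 of 68 for loss of NFAT5 in HSC (6.18% of all genes), 1 of 68 in MPP (5.35%) and 12 of 68 between HSC and MPP over both genotypes (12.2%). For loss of NFAT5 in HSC, 42 were higher and 26 lower, with a median of 0.12 beside -0.05 over all genes. In that comparison 41.6% of all genes had a higher value, and 5 of the 68 separated the genotypes fully (10.2% of all genes). In MPP, 39 of the 68 were higher (38.9% of all genes), with a median of 0.06 beside -0.07, and 11 separated the genotypes fully (12.6% of all genes).

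Among partners of the H3K9 methyltransferases, Cdyl had the smallest unadjusted p of the 68 genes for loss of NFAT5. CDYL is a chromodomain corepressor that binds methylated H3K9. Cdyl read 7.45, 7.75 and 7.57 in NFAT5-deficient HSC, against 6.73, 6.30 and 6.58 in wild-type HSC. All NFAT5-deficient arrays lay above all wild-type ones, by 1.05 on average (SE 0.21, unadjusted p = 0.00045, limma adjusted p = 0.585). In NFAT5-deficient MPP it read 7.10, 7.40 and 7.03, against 7.16, 6.53 and 6.94 in wild-type MPP, which overlapped, with a difference of 0.30 (SE 0.21, limma adjusted p = 0.899). Of the 7 measured genes on that list, NFAT5-deficient HSC were higher for 3 and lower for 4 (median -0.09). The next smallest p was that of the zinc finger gene Zfp644, with a difference of -0.55 (SE 0.54, limma adjusted p = 0.917).

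HP1, HUSH and MORC genes, the readers and their effectors, had 7 of 9 higher values in NFAT5-deficient HSC (median 0.17). Morc3, a nuclear ATPase that silences retroelements, read 8.79, 8.71 and 8.76 there, against 8.11, 8.16 and 8.47 in wild-type HSC, a difference of 0.51 (SE 0.20, limma adjusted p = 0.779). Morc2b differed by 0.16 (SE 0.11, limma adjusted p = 0.883). Its group means, 4.95 to 5.16, were close to the floor, taken from the group means of Y-linked genes (3.65 to 5.07). Morc3 was also below MPP in wild-type HSC by a log2 difference of -0.63 (SE 0.20, limma adjusted p = 0.354). In NFAT5-deficient MPP Morc3 read 9.20, 8.97 and 8.99, likewise above all NFAT5-deficient HSC arrays. The TRIM28 partners had 10 of 14 higher values in NFAT5-deficient HSC (median 0.12), with Smarcad1 at 0.33 and Hdac1 at -0.28. Zfp57, a KRAB zinc finger gene that protects imprinted regions, had the largest difference between HSC and MPP among the 68 genes, 1.72 over both genotypes (SE 0.56, limma adjusted p = 0.263). It read 7.34, 8.88 and 7.19 in NFAT5-deficient HSC and 8.56, 5.97 and 7.75 in wild-type HSC, against 7.93, 5.41 and 5.56 in NFAT5-deficient MPP and 5.995, 4.91 and 5.53 in wild-type MPP. HSC and MPP overlapped within NFAT5-deficient cells and, through HSC array 67 and MPP array 66, within wild-type cells. The lowest Zfp57 reading, 4.91 in wild-type MPP, lay within the range of that floor.

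The ATRX, DAXX and H3.3 genes had 3 of 8 higher values in NFAT5-deficient HSC (median -0.08), with the histone chaperone gene Asf1b at 1.35 (SE 0.72, limma adjusted p = 0.852) and Ubn1, of the HIRA chaperone complex, at 0.39 (SE 0.27, limma adjusted p = 0.896). H3K9 demethylases, which remove the mark, had 5 of 11 higher (median -0.05). Kdm4b had the smallest p, with a difference of -0.35 (SE 0.14, unadjusted p = 0.0303, limma adjusted p = 0.79). It read 6.40, 6.25 and 6.20 in NFAT5-deficient HSC, against 6.89, 6.48 and 6.53 in wild-type HSC, without overlap. Kdm7a was higher by 0.65 in HSC (SE 0.34, limma adjusted p = 0.852), where it read 8.74, 7.83 and 8.40 in NFAT5-deficient cells, against 8.46, 7.36 and 7.21 in wild-type cells, with overlap. It was higher by 0.80 in MPP (SE 0.34, limma adjusted p = 0.896) of NFAT5-deficient cells. The MPP readings of Kdm7a were 8.10, 8.14 and 8.05 in NFAT5-deficient cells, against 7.10, 7.45 and 7.35 in wild-type cells, without overlap.

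RNA editing and double-stranded RNA response genes, the surroundings of Adar, had 7 of 9 higher values in NFAT5-deficient HSC (median 0.19) and 3 of 9 in NFAT5-deficient MPP (median -0.09). Zbp1, a sensor of Z-form nucleic acids that ADAR restrains, read 7.71, 8.08 and 8.79 in NFAT5-deficient HSC, against 7.56, 7.07 and 7.52 in wild-type HSC, a difference of 0.81 (SE 0.34, limma adjusted p = 0.792). Adarb2, of the ADAR family, differed by 0.18 (SE 0.12, limma adjusted p = 0.894). In NFAT5-deficient MPP Zbp1 read 6.63, 6.83 and 6.92, against 7.89, 6.76 and 7.36 in wild-type MPP. Zbp1 was therefore above MPP in every HSC array of NFAT5-deficient cells, by 1.40 (SE 0.34, unadjusted p = 0.00171, limma adjusted p = 0.245). The difference between its genotype effects in HSC and MPP was 1.35 (SE 0.48, unadjusted p = 0.0166, limma adjusted p = 0.999).

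**Figure D5:**
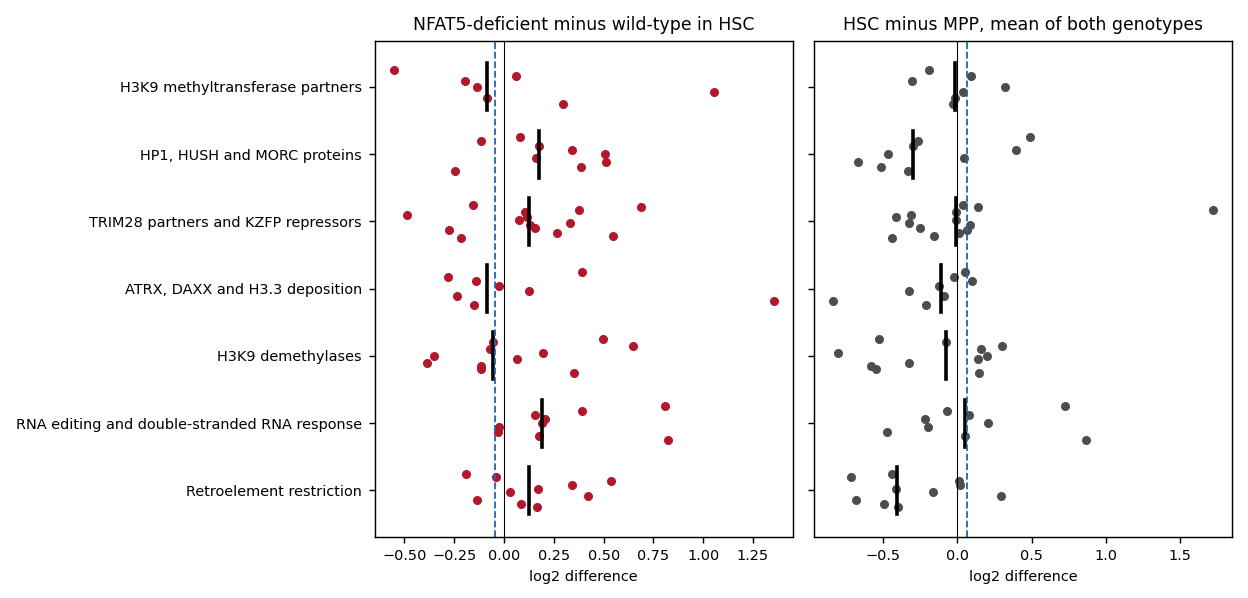
Log2 differences of the 68 measured pathway genes (points) by list, with the list median (black bar) and the median of all genes (blue dashed line). Left, NFAT5-deficient minus wild-type in HSC. Right, HSC minus MPP over both genotypes, where the retroelement restriction genes have a median of -0.40.

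For loss of NFAT5 in HSC, the retroelement restriction genes were higher for 7 of 10 (median 0.13), with Rnaseh2c at 0.34 (SE 0.23, limma adjusted p = 0.888) and Samhd1 at 0.53 (SE 0.40, limma adjusted p = 0.897). Of the 7 lists, the retroelement restriction genes gave the most one-sided values between stem cells and progenitors of wild-type cells. In NFAT5-deficient cells 6 of 10 were lower in HSC than in MPP (median -0.28), where 37.9% of all genes were lower. In wild-type cells all 10 measured were lower in HSC (median -0.39), where 41.4% of all genes were lower. Limma called 0 of 10 in NFAT5-deficient cells (0.21% of all genes) and 0 of 10 in wild-type cells (0.164%). An unadjusted p under 0.05 was reached by 2 of 10 in NFAT5-deficient cells (7.9% of all genes) and 1 of 10 in wild-type cells (8.9%). Uhrf1, which guides DNA methylation to hemimethylated DNA and binds methylated H3K9, had the smallest adjusted p of the 68 genes, 0.0928 in limma, with a difference of -0.71 over both genotypes (SE 0.16). It read 9.86, 9.28 and 9.36 in NFAT5-deficient HSC and 9.60, 9.49 and 9.52 in wild-type HSC, against 10.23, 10.32 and 10.53 in NFAT5-deficient MPP and 10.49, 10.04 and 9.79 in wild-type MPP. HSC and MPP did not overlap within either genotype. Hells, a remodeler that acts in DNA methylation of repeats, differed by -0.68 (SE 0.21, limma adjusted p = 0.243). In NFAT5-deficient cells it read 7.57, 8.11 and 8.62 in HSC, against 9.05, 9.20 and 8.90 in MPP, without overlap (difference -0.95, SE 0.30, limma adjusted p = 0.437). In wild-type cells Hells read 8.50, 7.95 and 8.26 in HSC, against 8.49, 9.02 and 8.42 in MPP, with overlap (difference -0.41, SE 0.30, limma adjusted p = 0.761). Both genes are also linked to DNA replication. The mean of 9 replication markers was 9.51 to 9.81 in NFAT5-deficient HSC and 9.08 to 9.35 in wild-type HSC, against 9.94 to 10.09 in NFAT5-deficient MPP and 9.67 to 9.93 in wild-type MPP. Its part in the values of the list was not tested.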

How the data were processed

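Total RNA of sorted cells (300 pg a sample) had been amplified and hybridised to single-colour arrays, 12 in all. The values deposited by the authors were log2 intensities per probe set. RMA and limma are named, without versions, per the submitters' processing notes; for the genome build, the sources used here give nothing. Of 22142 probe sets, 19527 had 1 gene symbol and 2615 (11.8%) none. For the 33 genes with several probe sets, the one with the highest mean was used, which left 19494 genes. No further normalization was applied.

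Group means were fitted over all 12 arrays with limma 3.58.1 in R 4.3.3 (empirical Bayes with an intensity trend). P-values were adjusted by the Benjamini-Hochberg method over all 19494 genes, with a threshold of 0.05, and intervals are 95% confidence intervals. The fit was tested on simulated data. The 7 comparisons were the genotypes within HSC, within MPP and over both, the difference of those effects, and HSC against MPP in each genotype and over both. Correlations used 100000 permutations. No depth exists for arrays, and their number limits the precision.

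All 10 listed genes and Nfat5 were to be named, whatever their values. Of each pathway list, called genes were to be named in each comparison, or otherwise the 2 with the smallest unadjusted p. The text gives both for the genotypes in HSC, and for other comparisons only some of them, chosen after their values were seen. The members and lists were chosen with earlier results of these data known. Alternatives covered scaling, normalization, dim genes, probe sets, variance prior, array weights, groups fitted, a replicate block and single arrays left out. List genes without a named probe set were not analysed here. Figures were drawn with matplotlib 3.10.9.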

Additional observations from a re-analysis of the deposited data

How the results depend on the processing

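Over the alternatives, 1359 values of the 9 silencing genes were recomputed, and 0 of them passed the adjusted test. The sign turned in 69 of these. Group levels were recomputed only with centred arrays and with quantile normalization, and 0 of these 72 values moved by more than their group's SD. That SD reached 2.87 for Trim28 in wild-type HSC, so for noisy genes this check could hardly fail. With arrays centred on their median, the values that turned were 0.0024 for Ehmt1 between NFAT5-deficient and wild-type HSC, 0.0372 for Atrx between NFAT5-deficient and wild-type MPP, and, for HSC minus MPP, -0.0479 for Atrx in NFAT5-deficient cells, -0.0359 for Mphosph8 in wild-type cells and -0.0061 for Adar over both genotypes. Array weights gave 0.0369 for Atrx in MPP. Quantile normalization gave -0.0098 for Mphosph8 over both populations and 0.0033 for Cbx5 in the difference of genotype effects. An alternative chosen after seeing the data left out wild-type HSC array 66 and NFAT5-deficient HSC array 70. For the genotype difference it gave 0.0017 for Setdb1 and 0.0658 for Mphosph8 in HSC, and -0.56 for Ehmt1 over both populations. It gave 0.14 for Adar in the difference of genotype effects. For HSC minus MPP it gave 0.51 for Ehmt1, -0.19 for Mphosph8 and -0.43 for Adar in wild-type cells, and -0.36 for Adar over both genotypes. The cause was not tested.

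The sign of 27 values turned when 1 array was left out, and their ranges follow. Between NFAT5-deficient and wild-type HSC they were Ehmt1 -1.19 to 1.11, Mphosph8 -0.25 to 0.11, Cbx5 -0.22 to 0.0097 and Adar -0.72 to 0.86. Between NFAT5-deficient and wild-type MPP they were Ehmt1 -0.37 to 0.85, Ehmt2 -0.11 to 0.23 and Atrx -0.19 to 0.15. For the genotype difference over both populations they were Trim28 -1.17 to 0.26, Setdb1 -0.0220 to 0.28, Ehmt1 -0.41 to 0.74, Ehmt2 -0.23 to 0.0135, Suv39h2 -0.13 to 0.48 and Mphosph8 -0.0755 to 0.11. For the genotype difference in HSC minus that in MPP they were Ehmt1 -1.56 to 0.74, Mphosph8 -0.35 to 0.0134, Cbx5 -0.11 to 0.12 and Adar -1.45 to 0.12. For HSC minus MPP in NFAT5-deficient cells they were Atrx -0.14 to 0.19 and Cbx5 -0.20 to 0.0283. Between HSC and MPP of wild-type cells they were Trim28 -1.20 to 1.67, Setdb1 -0.0619 to 0.36, Ehmt1 -1.79 to 0.51, Mphosph8 -0.19 to 0.18 and Adar -0.43 to 1.14. Between HSC and MPP over both genotypes they were Suv39h2 -0.20 to 0.41, Mphosph8 -0.18 to 0.0005 and Adar -0.37 to 0.41.

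The count of genes called between NFAT5-deficient and wild-type MPP was 1, and it was 0 with the filter on dim genes, with only the groups compared fitted and without both arrays named above, 2 with quantile normalization, 3 with centred arrays and 6 with array weights. For the difference of genotype effects it was 0, and 1 with the filter on dim genes. For HSC minus MPP in NFAT5-deficient cells it was 41, and 12 with only the groups compared, 23 with robust variances, 24 with quantile normalization and 23 without both arrays. In wild-type cells it was 32, and 9 with only the groups compared and 18 without both arrays. Over both genotypes it was 119, and 79 without both arrays. Without 1 array in turn, the counts were 0 to 3, 0 to 4 and 0 to 2 for the genotype in HSC, in MPP and over both, 0 to 1 for the difference of effects, and 5 to 32, 11 to 30 and 71 to 112 for HSC minus MPP in NFAT5-deficient cells, in wild-type cells and over both genotypes.

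The array number shared by HSC and MPP was fitted as a fixed block for HSC minus MPP. This called 3, 5 and 52 genes in NFAT5-deficient cells, in wild-type cells and over both genotypes. For the genotype comparisons and the difference of their effects it was a random block (correlation 0.0454), a different model. That model called 1 gene for the difference of genotype effects. The labels do not tie a number to an animal. Deviations from the group means correlated at -0.0137 to 0.0641 between arrays of the same number. For 2 of 6 numbers, 66 and 67, each array correlated best with the other, among all arrays of the other population. Noise between arrays could hide a shared animal, so these correlations cannot decide whether arrays of 1 number came from the same animal. Neither kind of block made any silencing gene pass the test. With 3 arrays a group, precision is limited by their number, and fold changes of Trim28 and Ehmt1 of several-fold were not detectable.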
